A study of Mus musculus with 6 samples.

Results

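The 9 transcription factor genes described here, Zbtb7b, Runx1, Runx3, Cbfb, Gata3, Tox, Bcl11b, Satb1 and Bcl6, steer immature thymocytes toward the CD4 or the CD8 T cell fate. Every probe listed under one of these symbols in the annotation of the array was taken, which gave 16 of the 45281 probes of an Illumina MouseWG-6 v2 array. RNA came from the whole thymus of 3 miR-181d Tg-38 mice and 3 wild type (WT) mice, with 1 array per mouse. Both groups are of the C57BL/6 strain and were not treated. In the Tg-38 mice, a fragment of the pri-miR-181d gene was placed in a human CD2 cassette, which directs expression to thymocytes and peripheral T cells, and part of miR-181c was removed from the fragment. Tg-38 is 1 transgenic line, so an effect of the insertion site and an effect of the microRNA cannot be told apart in it. The labels name thymocytes as the cell type, but the RNA was made from the whole organ, and markers of macrophages, epithelium and red cells were also detected. In such RNA, fewer cells of a type and less RNA per cell cannot be told apart. No age or sex of the mice is given in the labels.

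A thymocyte first carries both coreceptors, CD4 and CD8 (the DP stage), and then keeps only the one that fits the MHC class its receptor recognizes (the SP stage). Zbtb7b encodes ThPOK, which commits cells to the CD4 helper lineage, and Runx3 commits cells to the CD8 cytotoxic lineage and silences Cd4. Runx proteins bind DNA together with the partner subunit CBF-beta, the product of Cbfb. Gata3 and Tox act upstream of ThPOK, Bcl11b and Satb1 maintain T cell identity and organize the chromatin of the coreceptor genes, and Bcl6 is a repressor that DP thymocytes, follicular helper T cells and germinal center B cells express.

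The sequences below are those of the microRNA that was over-expressed and of its family, since the seed (bases 2 to 8, in capitals) is the part by which a microRNA pairs with its target mRNAs. They come from RefSeq (build GRCm38.p6), where mature miR-181d lies at chr8:84178759-84178781 on the minus strand.
mmu-miR-181d-5p: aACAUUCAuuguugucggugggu
mmu-miR-181b-5p: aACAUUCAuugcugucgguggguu
mmu-miR-181a-5p: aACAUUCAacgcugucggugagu
mmu-miR-181c-5p: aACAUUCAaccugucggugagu
The seed of miR-181d was the same in miR-181a, miR-181b and miR-181c. Counted from the 5′ end of miR-181d, miR-181b carried the substitution U12C and had 1 more base at its end, and miR-181a carried U9A, U10C, U12C and G21A. The table used here held 0 probes listed under a miR-181 gene, so the level of the microRNA was not measured.

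On the Tg-38 arrays 17972 to 18464 probes were detected, and on the WT arrays 17674 to 18526, where detected means a detection p, the chance of such a signal among negative control beads, under 0.05. A probe had to be detected on 3 arrays or more to be kept for testing, which left 18352 probes. WT replicate 1 was the brightest array, with an upper quartile of the signals of 243, against 190.0 to 211.4 on the Tg-38 arrays and 206.2 and 215.2 on the other WT arrays. Signals are therefore given first as deposited and then on the log2 scale after background correction and quantile normalization, on which each change is relative to all probes. WT replicate 2 stood apart on the second principal component, which held 21.7% of the variance. The number of mice limits the precision, and the labels do not say whether mice were littermates.

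Of the 9 genes, the probes of Zbtb7b and Runx3, the factors that mark the fate decision itself, did not reach the detection filter. The other 7 genes had 14 probes, and each of these was detected on all 6 arrays. In the test across all probes (limma, two-sided, Benjamini-Hochberg adjustment), 0 of these 14 probes passed an adjusted p under 0.05, which 1.1% of all probes kept did (0.3% lower and 0.801% higher in Tg-38). Without adjustment, 6 of the 14 had a p under 0.05, all 6 with lower values in Tg-38 thymus, where 8.48% of all probes kept were lower and 8.55% higher at this level. On 6 of the 14 probes every Tg-38 mouse lay below every WT mouse and on 0 above every WT mouse, against 11.2% and 11.4% of all probes kept. The 6 probes belong to Runx1, Tox, Bcl6 and, with 3 probes of the same gene, Bcl11b, so they are not 6 separate genes. With the brightest probe of each gene, 3 of 7 genes were lower at an unadjusted p under 0.05, against 6.94% of all genes measured, and 0 were higher. Without WT replicate 1 the number of member probes lower at this level was 1 (Runx1), and it was 3 without WT replicate 3 or Tg-38 replicate 3. The median log2 fold change (Tg-38 minus WT) was -0.25 over the 14 probes and -0.01 over all probes kept. Of the 14 probes, 12 had a value below 0, as had 51.3% of all probes kept. These counts are a description, since the genes were chosen with earlier results of these data known.

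Zbtb7b, whose product ThPOK represses the CD8 program in CD4 cells, gave signals just at the edge of detection. Its probe (ILMN_2441391) gave 140.1, 132.0 and 128.3 on the Tg-38 arrays, against 149.8, 142.7 and 137.6 on the WT arrays. It was detected on 1 array of each group, with detection p-values of 0.041 to 0.078 in Tg-38 and 0.047 to 0.069 in WT. On the normalized log2 scale it was at 5.07 ± 0.09 in Tg-38 and 5.10 ± 0.04 in WT (SD, n = 3 each), and the groups overlapped. With the detection filter removed its log2 fold change was -0.03 (limma adjusted p = 0.95).

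Runx3, the CD8 lineage factor, had no signal above background. Its probe (ILMN_2747141) gave 112.9, 110.0 and 109.4 on the Tg-38 arrays and 120.2, 109.7 and 107.1 on the WT arrays, all of them below the lowest signal detected on the same array, which was 132.1 to 138.1 on Tg-38 arrays and 140.4 to 152.6 on WT arrays. It was detected on 0 of 6 arrays, and no fold change is given for it. A probe at background does not show that a gene is silent. The 2 probes of Cd8a, the coreceptor chain that DP and CD8 cells carry, were also detected on 0 of 6 arrays (signals of 110.4 to 123.4 in Tg-38 and 114.3 to 138.8 in WT). Cd8b1, the other chain, gave 24920.8 to 26865.8 in Tg-38 and 27700.2 to 31798.2 in WT. The level of Runx3, and the balance of Zbtb7b and Runx3, could thus not be measured on these arrays.

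**Figure D1:**
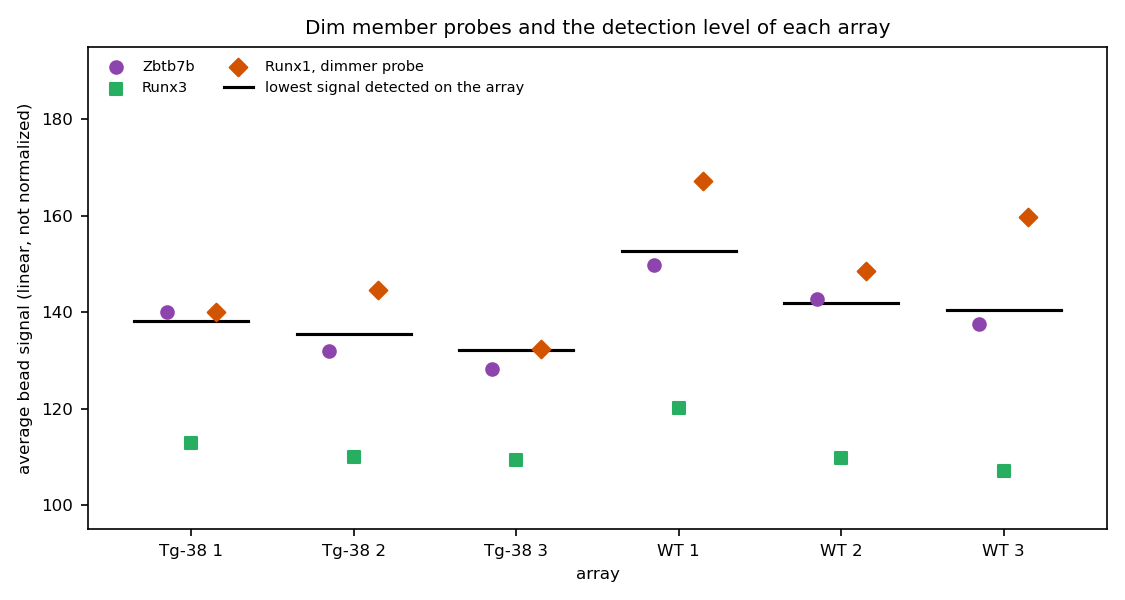
Deposited average bead signal (linear, not normalized; the axis starts at 95) of the probes of Zbtb7b and Runx3 and of the dimmer probe of Runx1 on each of the 3 Tg-38 and 3 WT arrays. The black bar is the lowest signal with a detection p under 0.05 on that array. Runx3 lies below the bar on all 6 arrays, Zbtb7b lies above it on 1 array of each group, and the Runx1 probe lies above it on all 6.

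Runx1, the Runx factor of early and DP thymocytes, which holds Cd4 silent before the DP stage, had the smallest p among the 14 probes. Its brighter probe (ILMN_2589107) gave signals of 395.9, 373.9 and 316.7 on the Tg-38 arrays, against 658.1, 477.2 and 557.1 on the WT arrays. After normalization the values were 8.20, 8.23 and 7.99 in Tg-38 and 8.78, 8.46 and 8.88 in WT. Every Tg-38 mouse lay below every WT mouse on both scales. The mean was 1.48-fold lower in Tg-38 (log2 fold change -0.56, with a standard error, SE, of 0.14, 95% interval -0.88 to -0.25), with an unadjusted p of 0.0027 and an adjusted p of 0.095 from limma, so it did not pass the threshold. Over 18 alternative settings the adjusted p ranged from 0.032 to 0.27, and it passed in 5 of them, among them the fit without WT replicate 2 (adjusted p = 0.043, log2 fold change -0.68).

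The second Runx1 probe (ILMN_2619773), made to a cDNA clone and not to the RefSeq transcript, was dim. It gave 140.1, 144.6 and 132.4 in Tg-38 and 167.3, 148.6 and 159.7 in WT, and was detected on all 6 arrays with detection p-values up to 0.046. Its log2 fold change was -0.28 (SE 0.16, limma adjusted p = 0.40), and the groups overlapped after normalization. Without background correction its log2 fold change was -0.086. The change of this probe minus that of the brighter one was 0.28 on the log2 scale (exact permutation test, p = 0.1, the smallest that 3 against 3 mice can give, and 0.60 after adjustment over 12 comparisons of probes).

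Cbfb, the partner that Runx proteins need to bind DNA, differed little between the groups on all 3 probes. The brightest probe (ILMN_2837855) gave 5850.1, 5195.9 and 5462.3 in Tg-38, against 7426.7, 6442.8 and 5938.9 in WT. The groups did not overlap in these deposited signals, and overlapped once the arrays were normalized. The normalized log2 values were 12.53 ± 0.09 in Tg-38 and 12.56 ± 0.03 in WT (SD, n = 3 each), with a log2 fold change of -0.03 (95% interval -0.27 to 0.21, limma adjusted p = 0.92). The other probes had log2 fold changes of 0.05 (interval -0.21 to 0.31) and 0.04 (interval -0.26 to 0.33), which turned to -0.11 and -0.09 with median scaling of the arrays. That scaling moved the median of all probes kept to -0.14, so the Cbfb probes stayed near the bulk of the probes. The 3 intervals reach at most a 1.20-fold decrease and a 1.26-fold increase.

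The ratio of Runx1 to its partner was compared within each array, as the normalized log2 value of the Runx1 probe ILMN_2589107 minus that of the Cbfb probe ILMN_2837855. Only the change of this difference can be read, because the signals of different probes are not on a common scale. It was -4.39, -4.20 and -4.56 in Tg-38 and -3.81, -4.06 and -3.68 in WT, so the groups did not overlap. The mean difference was 0.53 lower in Tg-38 (change -0.53, exact permutation test, p = 0.1, the smallest possible here; adjusted p = 0.60 over 12 such comparisons of probes). Over 12 alternatives this change lay between -0.70 and -0.40. It largely repeats the change of the Runx1 probe itself (-0.56), since the Cbfb probe changed by -0.03. The dimmer Runx1 probe was not compared with Cbfb.

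**Figure D2:**
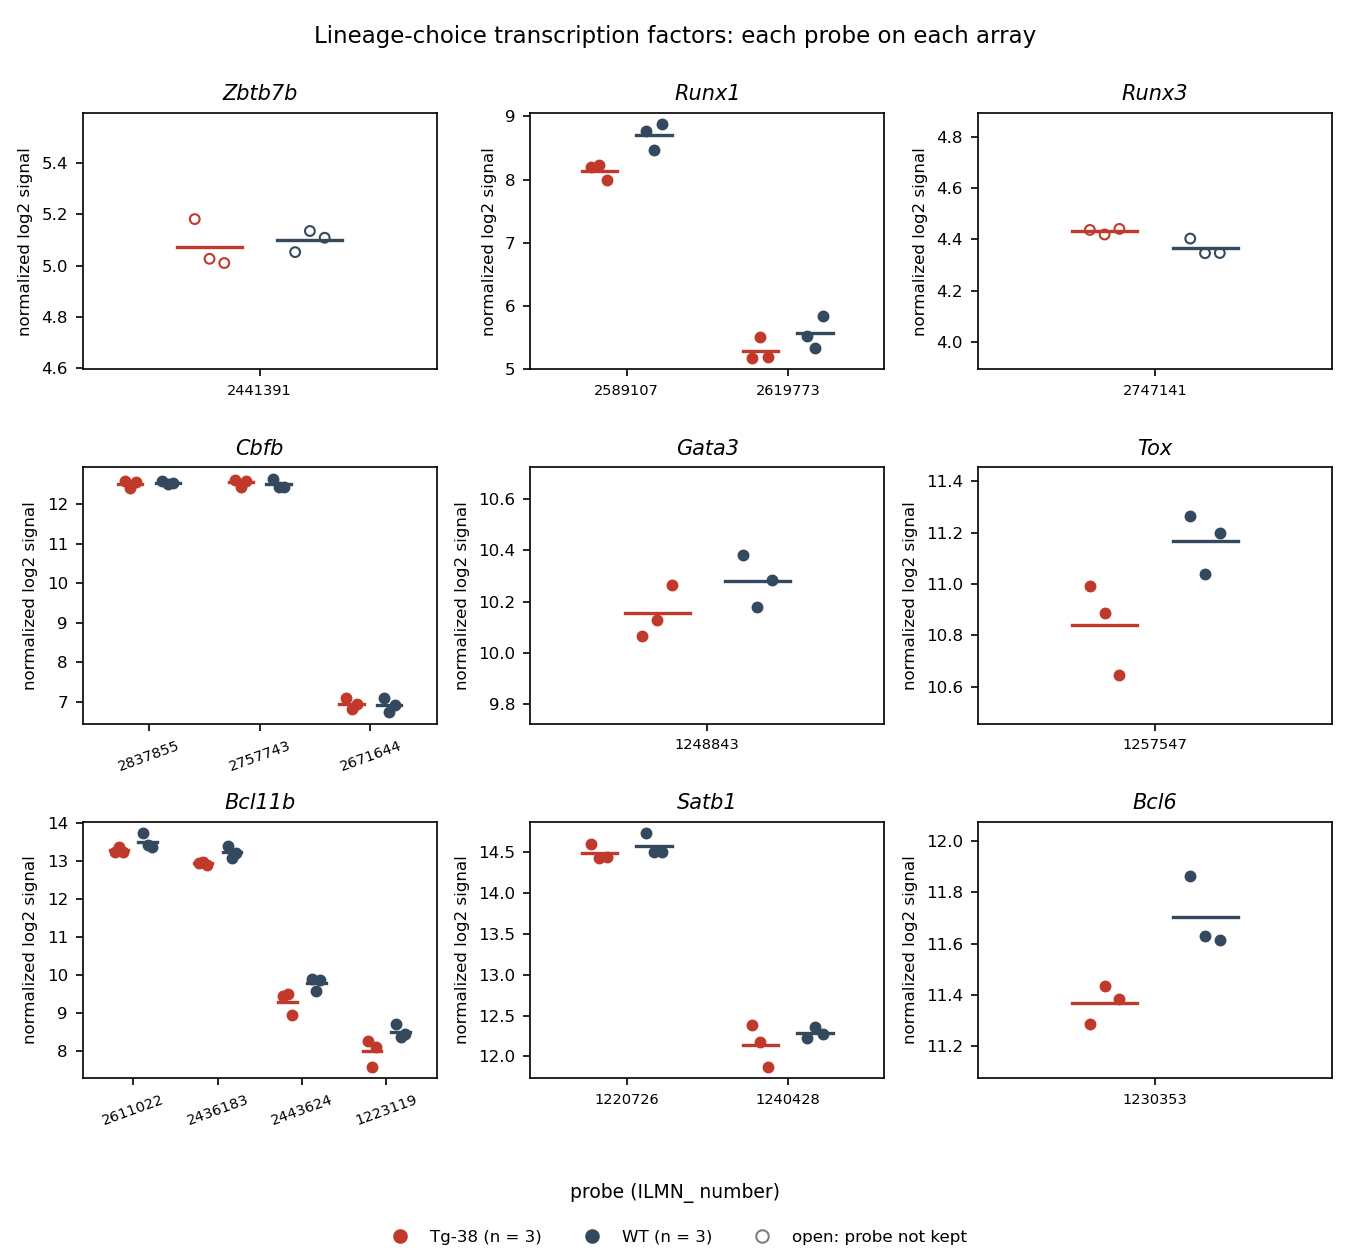
Normalized log2 signal of each of the 16 probes on each array, 1 panel per gene with its own vertical range. Points are mice (Tg-38 left in red, WT right in blue, n = 3 each), bars are group means, and open points mark the probes of Zbtb7b and Runx3, which were not kept. The groups are apart for Runx1 ILMN_2589107, Tox, Bcl6 and 3 of the 4 Bcl11b probes among the probes kept.

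Gata3, a zinc finger factor that CD4 cells need and that acts upstream of Zbtb7b, had signals of 1125.5, 1121.4 and 1172.8 in Tg-38, against 1776.7, 1332.9 and 1306.6 in WT (ILMN_1248843). Here too the deposited signals were apart, while the normalized values overlapped, at 10.15 ± 0.10 in Tg-38 and 10.28 ± 0.10 in WT (SD, n = 3 each). The log2 fold change was -0.13 (95% interval -0.38 to 0.13, limma adjusted p = 0.61), an interval that reaches from a 1.30-fold decrease to a 1.09-fold increase.

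Tox, a factor of the HMG box family without which few CD4 lineage cells form, gave 2029.4, 1827.8 and 1502.7 in Tg-38 and 3131.6, 2365.4 and 2355.9 in WT (ILMN_1257547). The normalized values were 10.99, 10.88 and 10.65 in Tg-38, all below the 11.26, 11.04 and 11.20 of WT. The mean was 1.25-fold lower in Tg-38, with a log2 fold change of -0.33 (SE 0.13), an unadjusted p of 0.031 and an adjusted p of 0.24 from limma, which did not pass. Its paralog Tox4, a gene that many cell types use, had a log2 fold change of -0.23 (limma adjusted p = 0.33).

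Bcl11b, which seals T cell commitment and stays on in all later thymocytes, is covered by 4 probes, all listed under the same RefSeq transcript. The brightest one (ILMN_2611022) gave 9065.0, 9722.6 and 8972.1 in Tg-38, against 15390.0, 12071.2 and 10559.2 in WT. Its log2 fold change was -0.22 (SE 0.13, limma adjusted p = 0.43), and Tg-38 replicate 2 and WT replicate 3 had the same normalized value to 2 decimals (13.37). The next probe (ILMN_2436183) gave 7558.9, 7483.0 and 6900.0 in Tg-38 and 12631.6, 9507.6 and 9290.0 in WT, with a log2 fold change of -0.29 (limma adjusted p = 0.25).

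The 2 dimmer Bcl11b probes had larger differences and a larger spread. ILMN_2443624 gave 773.3, 755.3 and 517.3 in Tg-38, against 1295.1, 906.2 and 1009.3 in WT (log2 fold change -0.49, SE 0.17, limma adjusted p = 0.20). ILMN_1223119 gave 410.6, 278.9 and 336.5 in Tg-38 and 631.4, 454.0 and 436.5 in WT (log2 fold change -0.51, SE 0.18, limma adjusted p = 0.21). All 4 probes were lower in the mean, by 1.16-fold to 1.43-fold, and the groups were apart on 3 of them. The log2 fold change of ILMN_2611022 was -0.11 without WT replicate 1, that of ILMN_2443624 was -0.31 without Tg-38 replicate 3, and that of ILMN_1223119 was -0.31 without Tg-38 replicate 2. None of the probes passed the test in any of the 18 alternatives.

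Satb1, a chromatin organizer that is abundant in DP thymocytes, had close values in the groups. Its RefSeq probe (ILMN_1220726) gave 23826.0, 20865.2 and 20621.8 in Tg-38 and 29412.4, 24942.7 and 22833.5 in WT. After normalization it was at 14.49 ± 0.10 in Tg-38 and 14.57 ± 0.13 in WT (SD, n = 3 each), with a log2 fold change of -0.09 (95% interval -0.35 to 0.18, limma adjusted p = 0.76). A second probe, made to a cDNA clone (ILMN_1240428), gave 5125.3, 4367.4 and 3424.5 in Tg-38 and 5966.1, 5790.7 and 4812.8 in WT, with a log2 fold change of -0.15 (interval -0.47 to 0.17, adjusted p = 0.65). The groups overlapped on both probes.

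Bcl6, a zinc finger repressor, gave 2452.5, 2614.4 and 2451.6 in Tg-38, against 4698.9, 3539.4 and 3103.0 in WT (ILMN_1230353). The 3 Tg-38 mice lay close together, and the WT mice were all above them. The normalized values were 11.29, 11.43 and 11.38 in Tg-38 and 11.86, 11.63 and 11.62 in WT. The mean was 1.26-fold lower in Tg-38, with a log2 fold change of -0.33 (SE 0.12), an unadjusted p of 0.018 and an adjusted p of 0.20 from limma, which did not pass. Cd79b, a B cell gene, was also lower in the mean (log2 fold change -0.55, adjusted p = 0.11), while Ms4a1, Pax5 and Cd22 of the B cell list did not pass the detection filter. The part of B cells in the Bcl6 value was not tested.

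**Figure D3:**
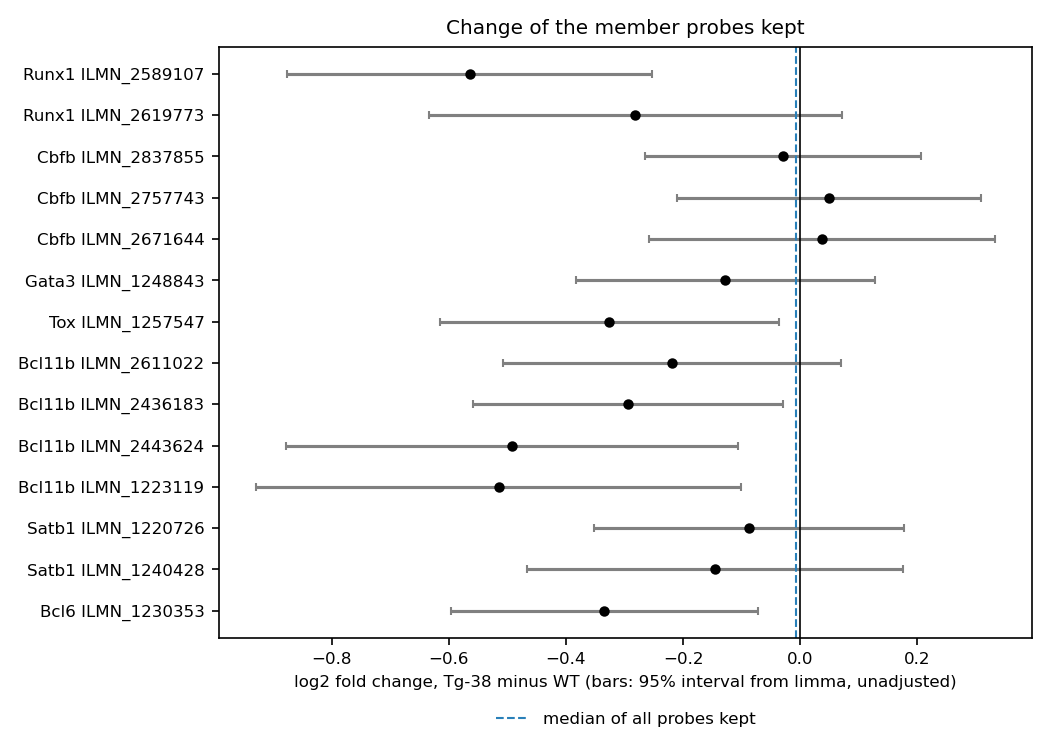
Log2 fold change (Tg-38 minus WT) of the 14 member probes kept, with unadjusted 95% intervals from limma (n = 3 mice per group), and the median of all probes kept as a dashed line. The intervals of 6 probes lie below 0, and those of the 3 Cbfb probes, both Satb1 probes, the Gata3 probe, Runx1 ILMN_2619773 and Bcl11b ILMN_2611022 include 0.

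**Figure D4:**
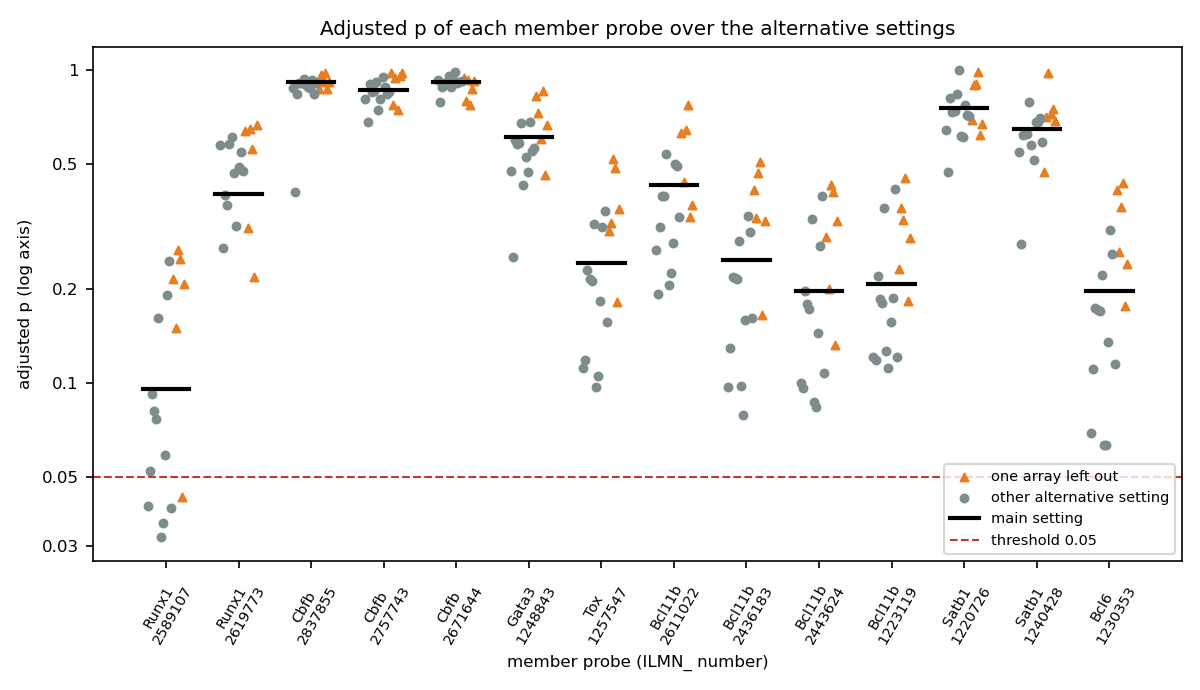
Adjusted p (log axis) of each member probe kept, with the main setting as a black bar and each alternative setting as a point (triangles where 1 array was left out). Only Runx1 ILMN_2589107 has points below 0.05, in 5 of 18 alternatives.

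Other genes of lineage choice were described from 3 lists of 63 genes, of which 43 had a probe that was kept, using the brightest probe of each gene. Over all genes measured this way, 1.29% passed the adjusted threshold. Among 12 measured paralogs and cofactors of the factors, 0 passed, 1 was lower and 0 were higher at an unadjusted p under 0.05, and 9 had a value below 0, as had 47.1% of all genes (median log2 fold change -0.09). Smarca4, the ATPase of a chromatin remodeling complex that acts with these factors, had the smallest p, with a log2 fold change of -0.25 (limma adjusted p = 0.29). Zbtb7a, the close relative of Zbtb7b, named after its values were seen, was at 9.37 in both groups (log2 fold change -0.00, adjusted p = 0.99).

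Among 17 other measured transcription factors and regulators, 0 passed, 4 were lower and 1 was higher at an unadjusted p under 0.05, where 6.94% of all genes were lower and 10.6% higher. The 1 higher gene, Tbx21, was kept through its Tg-38 arrays alone, so it is not read as a result. Lef1, which acts with Tcf7 before and during CD4 commitment, was the nearest to the threshold. Its values were 8.50, 8.34 and 8.10 in Tg-38 and 8.90, 8.87 and 8.98 in WT, with a log2 fold change of -0.61 (SE 0.13, limma adjusted p = 0.066). Tbx21, the T-bet factor of cytotoxic and NK cells, gave signals close to background, of 138.7 to 145.8 in Tg-38 and 149.4, 138.1 and 126.4 in WT. Each WT signal was below the lowest signal detected on its array (152.6, 142 and 140.4). The Tbx21 probe was thus kept through the Tg-38 arrays alone, and its log2 fold change of 0.52 is given without a test. Its log2 fold change was 0.16 without background correction, 0.19 with the authors' processed values and 0.27 with offset 50. Tcf7 was not analysed here.

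Of 14 measured genes that the factors are described to control or that mark the stages of the choice, 2 passed the adjusted threshold as higher in Tg-38 thymus and 0 as lower. At an unadjusted p under 0.05, 4 were higher (Il7r, Itgae, Klf2 and Cish) and 2 were lower (Cd4 and Rag1), where 10.6% of all genes were higher and 6.94% lower. Il7r, the interleukin 7 receptor chain that mature and CD8 lineage cells use, had normalized values of 10.44, 10.15 and 10.10 in Tg-38 and 9.40, 9.11 and 9.28 in WT. It rose 1.95-fold (limma adjusted p = 0.024). Itgae, the integrin CD103 that Runx3 induces in CD8 cells, had values of 10.28, 9.83 and 10.14 in Tg-38 and 9.24, 9.40 and 9.19 in WT, and rose 1.75-fold (log2 fold change 0.81, SE 0.14, limma adjusted p = 0.044). The call of Il7r ended in 8 of 18 alternatives and that of Itgae in 9. Leaving out Tg-38 replicate 1, 2 or 3 or WT replicate 1 or 3 ended both (adjusted p of 0.055 to 0.095 for Il7r and 0.051 to 0.16 for Itgae). Cd4, the gene that Runx factors silence, had a log2 fold change of -0.46 (limma adjusted p = 0.12), and Cd8b1 of -0.13 (limma adjusted p = 0.56). Klf2, Cish, Rag1, Cd4 and Cd8b1 were named after their values were seen.

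**Figure D5:**
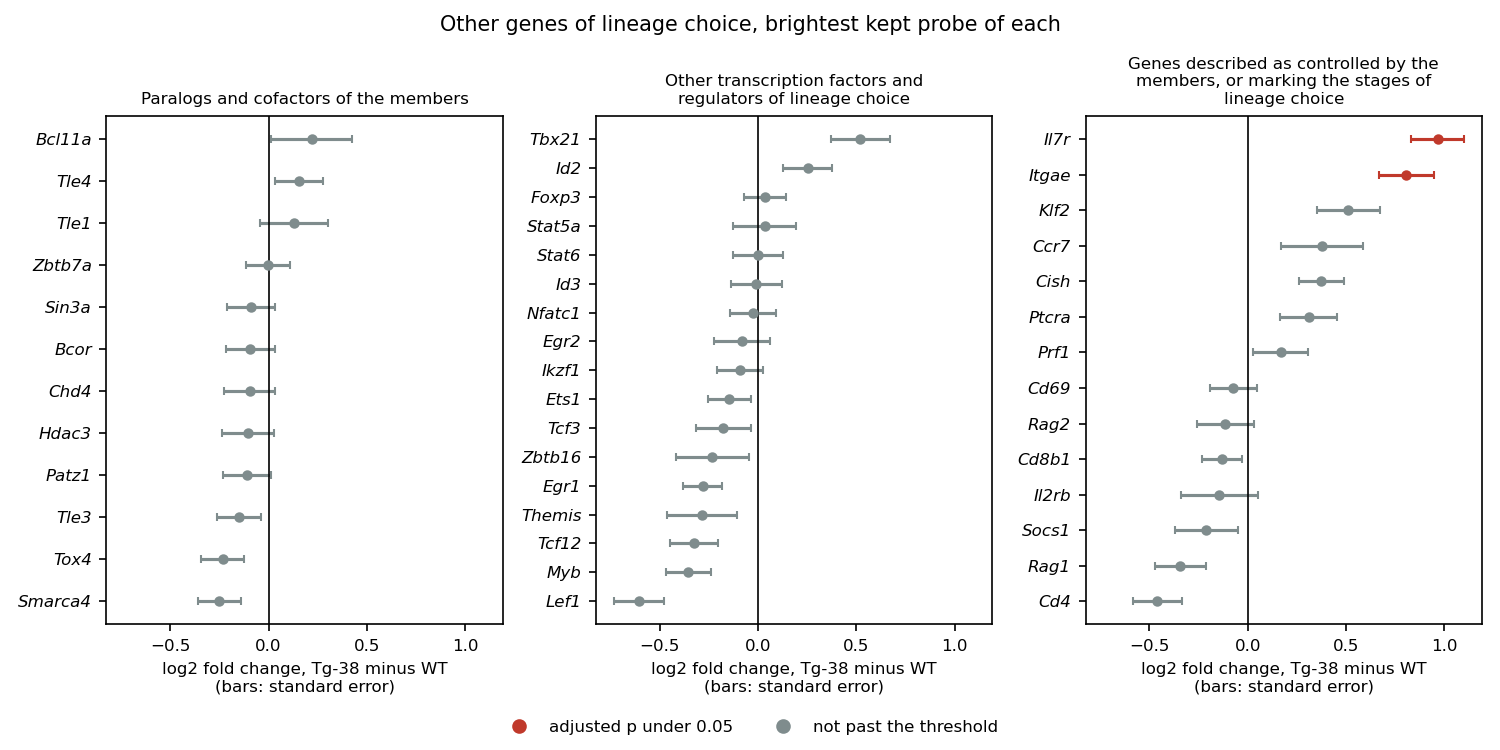
Log2 fold change (Tg-38 minus WT) with its standard error of the 43 other genes of lineage choice, in 3 lists, each on its brightest kept probe (n = 3 mice per group). Il7r and Itgae, in red, pass the adjusted threshold as higher, and no gene passes as lower. The probe of Tbx21 was kept through its Tg-38 arrays alone.

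Several sums of marker genes also differed between the groups. For each list the background-corrected signals of its measured genes were summed on the linear scale. The sum of 6 DP markers was 40379 to 42371 in Tg-38, against 45442 to 46898 in WT, and that of 4 markers of mature SP cells was 3594 to 4757 in Tg-38, against 2203 to 2591 in WT. The groups did not overlap in either sum, while the sum of 6 general thymocyte markers overlapped, at 27982 to 29721 in Tg-38 and 28187 to 29797 in WT. Cd3g and Cd3e were the brightest of these 6 and made up most of that sum. Of the 6, 4 had values below 0 and 2 above. The groups were apart as lower for Cd4 (log2 fold change -0.46) and Rag1 (-0.34), and as higher for Cd3g (0.16). Rag1 and Dntt are in both this list and the DP list. No DP marker passed the adjusted threshold, and 5 of 6 had values below 0. The log2 fold changes were -0.34 (Rag1), -0.22 (Arpp21), -0.13 (Cd8b1), -0.11 (Rag2), -0.00018 (Dntt) and 0.04 (Cd1d1). Cd8b1 was much the brightest of the 6, so it weighed most in the DP sum. Il7r and Itgb7 of the mature list passed as higher. The sum of 5 markers of cytotoxic T and NK cells was 3061 to 3756 in Tg-38 and 1972 to 2390 in WT. Of these 5, Klrd1 and Nkg7 passed as higher (log2 fold changes of 2.16 and 1.16), and Prf1, Klrb1c and Il2rb, at 0.17, 0.03 and -0.14, overlapped between the groups. The sum of 2 erythroid markers was 3814 to 9436 in Tg-38 and 10923 to 25512 in WT. The sum of 4 macrophage and dendritic cell markers was 4190.6 to 4642 in Tg-38 and 4000.4 to 4188.7 in WT, so the groups nearly touched. Cst3, the brightest of these 4, had a log2 fold change of -0.11. The other 3 were above 0, and 0 passed the adjusted threshold. That of 4 epithelial markers was 1358 to 1633 in Tg-38 and 1018 to 1285 in WT, and Cd79b alone stood for the B cells. Some genes of these lists were not analysed here, and S1pr1, Cd40lg, Gzmb, Ncr1, Itgax, Foxn1 and Epcam did not pass the filter. The part of these shifts in the values of Runx1, Tox, Bcl11b and Bcl6 was not tested.

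The normalized values of Runx1 ILMN_2589107 over the 6 arrays were followed most closely by a probe of Tle3, a corepressor that Runx proteins recruit (Pearson r = 0.996), then by Trpc4ap and Cdc25a (r = 0.995 each). This is a description over 6 arrays that share their groups, and 137 of 15398 probes had an r over 0.95. The likened Tle3 probe (ILMN_2615276) had a log2 fold change of -0.46 (limma adjusted p = 0.13), against -0.15 on the brightest Tle3 probe.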

How the data were processed

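Per the labels, biotin-labeled cRNA of whole thymus RNA was hybridized to Illumina MouseWG-6 v2 arrays and read out with GenomeStudio, whose version is not given in the sources used here. Per probe and array, the deposited scanner table gives a detection p-value and the bead signal, averaged by the software into an intensity on the linear scale that was not normalized between arrays. A second deposited table holds intensities that the authors corrected and rescaled by a method not given in the sources used here, and served as an alternative. For that alternative an offset of 16 was added to them before log2 was taken. The neqc function of limma 3.58.1 (R 4.3.3, statmod 1.5.0) removed background by means of these p-values, added an offset of 16, took log2 and set equal quantiles on the arrays. A probe was kept where 3 or more arrays had a detection p below 0.05, and Tg-38 was compared with WT by lmFit and eBayes on all of them (two-sided, Benjamini-Hochberg, threshold 0.05; residual and prior degrees of freedom 4 and 4.93). The fit was tested on simulated data with independent normal noise per probe. That test does not cover the normalization or spread shared between probes. The limma p-values set the difference between group means against the spread between mice, moderated over all probes kept. With 1 array per mouse, that spread also holds the spread between arrays.

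Gene symbols come from the annotation of the platform, which gives 1 gene for 34885 probes, several for 18 and none for 10378, and no member shares a probe with another gene. The members and lists were chosen with earlier results of these data known. Named were every member probe and, per list, the genes that passed and the 2 with the smallest p. The 3 probes most like the leading member were also named. Other genes the text names were chosen after their values were seen. Sums of markers use 2 to the power of the normalized value minus 16. Ratios of Zbtb7b, Gata3 and Runx1 to Runx3 were planned and not run, since Runx3 was not kept.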

Additional observations from a re-analysis of the deposited data

How the results depend on the processing

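Of the 14 member probes kept, 11 held their direction in every alternative run. Runs able to change a direction were other background corrections and normalizations, the authors' processed values, array weights, another offset and each array left out. Other filters, an intensity trend, the replicate block and the methods' t-test reused the same normalized values, so their log2 fold changes could not differ. The probes that changed direction were those of Cbfb, with values near 0. ILMN_2671644, at 0.04, was at -0.090 with median scaling, -0.0062 with array weights and -0.051 (without WT replicate 2) to 0.12 (without WT replicate 1) with 1 array left out. ILMN_2757743 was at -0.11 with median scaling, and ILMN_2837855 at -0.062 to 0.019 with 1 array left out.

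The number of member probes past the adjusted threshold, 0 in the values reported, was 1 (Runx1 ILMN_2589107) without background correction (adjusted p = 0.040 from limma), with the authors' processed values (0.032), with an intensity trend (0.036), with offset 50 (0.040) and without WT replicate 2 (0.043). Leaving out other arrays gave 0, so the range was 0 to 1. The member probes lower at an unadjusted p under 0.05 were 6, against 3 with the methods' t-test (0 after Benjamini-Hochberg), and 1 to 7 with 1 array left out. The lowest came without WT replicate 1. The cause was not tested.

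Over all probes, 202 passed. The number was 397 without background correction, 48 with no filter, 445 with the authors' processed values, 481 with an intensity trend, 442 with offset 50, 27 with the replicate block, 1 with the methods' t-test, and 15 to 315 with 1 array left out (315 without WT replicate 2). That t-test was run on the values normalized here, with Benjamini-Hochberg adjustment. The methods of the study state a p under 0.05 for it and name no adjustment, so the 1 is not the study's count. Of the probes that passed, 72.8% were higher, against 35.9% with median scaling.

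In the list of controlled genes and stage markers, 2 genes were higher, against 1 with median scaling, 0 with no filter, the replicate block or the methods' t-test, and 0 to 2 with 1 array left out. In the same list 0 were lower, against 1 (Cd4) without background correction, with median scaling and with the authors' processed values. Among the other transcription factors 0 were lower, against 1 (Lef1) without background correction, with median scaling, the authors' processed values, an intensity trend or offset 50. No pairing by replicate number was seen: same-numbered mice had correlations of 0.03, -0.12 and -0.10 between their deviations from the group means, and 0 correlated best with their own number. With 3 mice per group, this check cannot exclude a pairing. The block changed the call of Il7r (adjusted p = 0.054) and Itgae (0.13) and of no member probe. The Zbtb7b and Runx3 probes were tested with no filter only, where neither passed (adjusted p of 0.95 and 0.77 from limma).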
